A study of Homo sapiens with 5 samples.

Results

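In HCT116 cells treated with camptothecin (CPT), 658 p53-binding sites were also bound by ATF3. They are called co-bound sites here. They were chosen by peak overlap, as p53 peaks that shared at least 1 bp with an ATF3 peak and none with a peak of p53-KO cells. They made up 18.6% of the 3532 p53-CPT peaks on chromosomes 1 to 22 and X that had no p53-KO peak. The other 2874 of these peaks had no ATF3-CPT peak and are called p53 peaks without ATF3. All p53-CPT peaks on these chromosomes numbered 9013, and 5481 of them (60.8%) were left out because they shared a base with a p53-KO peak. The overlaps with ATF3-CPT and p53-KO peaks define the set and are not findings about it.

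HCT116 is a human colorectal cancer cell line with wild-type p53, and CPT is a topoisomerase I inhibitor that breaks DNA. Binding was measured by ChIP-seq in 5 libraries, each the only one of its condition. ATF3 was profiled in ATF3-WT cells given DMSO, the drug's solvent (ATF3-Ctrl), in ATF3-WT cells exposed for 4 h to CPT at 1.5 μM (ATF3-CPT), and in ATF3-KO cells given DMSO (ATF3-KO), a line made by targeted recombination. For p53, the libraries came from p53-WT cells after the same CPT treatment (p53-CPT) and from p53-KO cells given DMSO (p53-KO). Genotype and treatment therefore both differed between the p53 libraries and cannot be told apart in the removal step. All cells were cross-linked with 1 mM of DSG and 1% formaldehyde.

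p53 is a tetramer that binds a pair of adjacent decamers and, once stabilised by DNA damage, activates genes for cell cycle arrest, apoptosis and DNA repair, among them its own inhibitor MDM2. ATF3 is a stress-induced bZIP protein of the ATF/CREB family. With a partner such as a JUN protein it binds the AP-1 element, and it also binds the related ATF/CRE element. ATF3 and p53 are known to bind each other, and ATF3 is itself a p53 target gene.

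The p53 libraries were shallow, with 3169743 tags in p53-CPT and 1984941 in p53-KO, and the ATF3 libraries held 12820520 to 15457013 tags. A peak needed at least 7 tags in p53-CPT and 9 in ATF3-CPT and ATF3-Ctrl, so weaker binding was not detectable at this depth. The ATF3-KO library gave 2231 peaks, with 0.56% of its tags in them, against 70702 peaks and 12.76% in ATF3-CPT. The p53-KO library gave 7879 peaks with 9.01% of its tags, against 9211 peaks and 7.2% in p53-CPT. Of the co-bound sites, 155 (23.6%) had the lowest score in the p53 list, 7 tags. The score counts tags with at most 1 per position, and the normalized tag count is given per 10000000 tags of the library. Intervals are 95% limits that cover counting error only, since regions of 1 library are not replicates of a condition.

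Of the 658 co-bound sites, 300 held a p53 motif (45.6%, 41.8 to 49.4) and 187 held an AP-1 or ATF/CRE core (28.4%, 25.1 to 32.0). Motifs were searched in the bases of the p53-CPT peak, and an ATF3-CPT peak could reach beyond these. The p53 motif was 2 adjacent decamers of 10 bp each, with no spacer and at most 3 mismatches in all. The cores were exact matches of TGAGTCA or TGACTCA (AP-1) and TGACGTCA (ATF/CRE). Each of these patterns reads on both strands, and no AP-1 core can lie inside an ATF/CRE core. Both motifs were found at 107 sites, the p53 motif only at 193, a core only at 80, and neither at 278. Sequences of 12 named sites are shown to illustrate the first 3 of these classes, read on the plus strand of hg19, with the p53 motif and the cores in capitals. The first 4 sites hold both motifs, which are separate words at each of them:
MDM2 (chr12:69202649-69202752): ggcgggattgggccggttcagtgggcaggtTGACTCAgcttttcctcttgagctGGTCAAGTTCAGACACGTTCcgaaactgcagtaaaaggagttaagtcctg
GADD45A (chr1:68152428-68152543): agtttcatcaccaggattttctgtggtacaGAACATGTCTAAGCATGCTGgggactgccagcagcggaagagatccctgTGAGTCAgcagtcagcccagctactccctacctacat
PTPN14 (chr1:214612940-214613084): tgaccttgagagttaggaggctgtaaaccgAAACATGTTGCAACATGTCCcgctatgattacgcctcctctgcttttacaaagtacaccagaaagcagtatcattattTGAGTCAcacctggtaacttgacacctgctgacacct
HSPA12A (chr10:118507654-118507754): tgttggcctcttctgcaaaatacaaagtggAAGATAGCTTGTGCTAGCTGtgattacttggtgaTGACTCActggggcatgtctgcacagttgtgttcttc
The next 6 sites hold the p53 motif alone, with 0 mismatches at PLK2, MSI2 and MTHFD1L:
CDKN1A (chr6:36635005-36635084): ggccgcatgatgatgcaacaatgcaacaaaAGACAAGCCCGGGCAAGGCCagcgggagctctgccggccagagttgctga
PLK2 (chr5:57758071-57758150): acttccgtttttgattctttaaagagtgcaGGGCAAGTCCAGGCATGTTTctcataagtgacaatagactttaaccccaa
GDF15 (chr19:18484727-18484806): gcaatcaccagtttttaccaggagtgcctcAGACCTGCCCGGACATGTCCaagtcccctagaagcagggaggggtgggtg
BBC3 (chr19:47735795-47735874): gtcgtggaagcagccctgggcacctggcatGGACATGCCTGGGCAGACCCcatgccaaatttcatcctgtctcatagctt
MSI2 (chr17:55601456-55601535): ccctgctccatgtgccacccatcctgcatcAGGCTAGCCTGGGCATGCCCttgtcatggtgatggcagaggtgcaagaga
MTHFD1L (chr6:151178453-151178532): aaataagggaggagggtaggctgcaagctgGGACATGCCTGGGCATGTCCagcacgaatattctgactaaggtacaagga
The last 2 sites hold an AP-1 core alone, and the one labelled TMEM214 lies in intron 1 of MAPRE3, 21998 bp from the TSS of TMEM214:
ATF3 (chr1:212769825-212769891): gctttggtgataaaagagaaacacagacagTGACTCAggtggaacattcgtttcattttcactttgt
TMEM214 (chr2:27233795-27233861): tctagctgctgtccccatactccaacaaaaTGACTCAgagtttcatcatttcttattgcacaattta

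The p53 motif was about as frequent at co-bound sites as at p53 peaks without ATF3, where 1283 of 2874 held it (44.6%). The difference was 0.951 percentage points (-3.24 to 5.18, Newcombe interval). It was 6.83 points (2.37 to 11.3) when the 81 co-bound sites with an ATF3-KO peak (12.3%, against 2.48% of all ATF3-CPT peaks) were left out. In sequence of the same width lying 1000 bp to either side of the co-bound sites the share was 6.48%, around all ATF3-CPT centres 7.42%, and around the TSS of protein-coding genes 3.94%. The motifs of the co-bound sites were less close to the consensus. Of those with a motif, 46.0% had 3 mismatches, against 23.5% of the p53 peaks without ATF3 that had one, a difference of 22.5 points (16.4 to 28.5). A single mismatch was found in 13% and 27.3%.

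AP-1 cores separated the sets. They were found at 180 co-bound sites (27.4%) and at 112 p53 peaks without ATF3 (3.90%), a difference of 23.5 points (20.1 to 27.1). The second share was not above that of the sequence 1000 bp beside either set (5.19% for each). In windows of the same width around all ATF3-CPT centres, rather than p53-CPT centres, the share was 43.8%. Around TSS it was 3.35%. The ATF/CRE core was rare, with 9 co-bound sites (1.37%) and 2 of the p53 peaks without ATF3 (0.0696%), against 2.44% around TSS. The gap in AP-1 or ATF/CRE cores was present at low and at high p53 levels. At p53 scores of 7 to 8 a core was present at 26.3% of co-bound sites and 3.79% of p53 peaks without ATF3, and at scores of 21 or more at 30.7% and 3.36%. Among p53 peaks with a p53 motif, a core was present at 35.7% of co-bound sites and 4.13% of the others, a difference of 31.5 points (26.2 to 37.2).

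**Figure D1:**
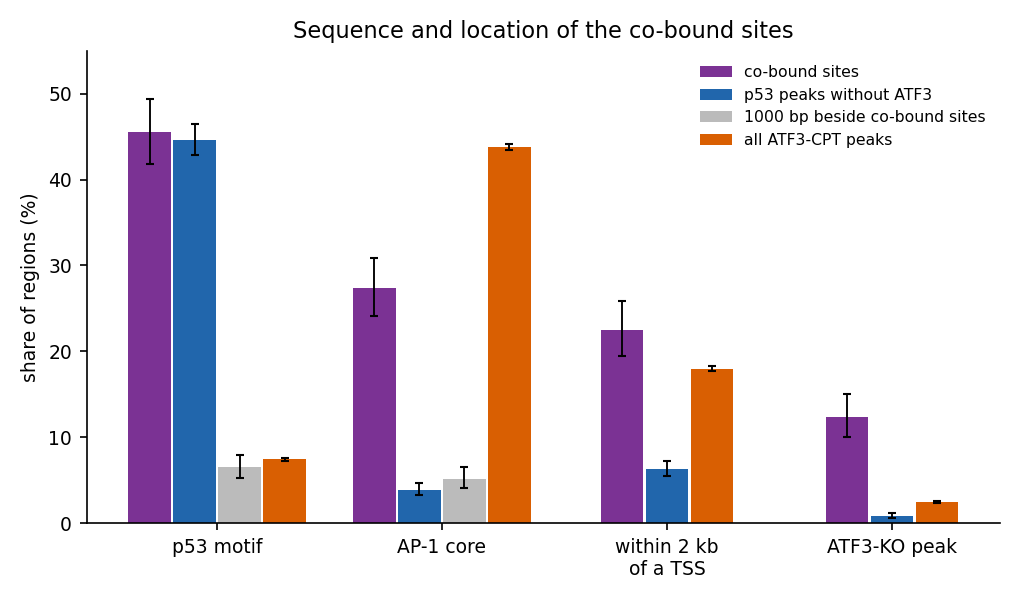
Share of regions (%) with a p53 motif, with an AP-1 core, within 2 kb of a TSS and with an ATF3-KO peak, with 95% Wilson intervals. Co-bound sites and p53 peaks without ATF3 had p53 motif shares of 45.6% and 44.6% but AP-1 core shares of 27.4% and 3.90%; flanking sequence is drawn for the motifs only.

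The centres of the p53-CPT and ATF3-CPT peaks lay a median of 60.0 bp apart (54 to 64, n = 658) and were within 50 bp at 286 sites (43.5%) and within 100 bp at 459 (69.8%). The p53 peaks had a fixed width of 318 bp and the ATF3 peaks of 124 bp, so overlap allowed distances up to 221 bp. Each centre sat near its own motif. At the 107 sites with both motifs, the p53 centre was nearer to the p53 motif than to the core at 91 sites (85.0%, 77.1 to 90.6), with a median distance of 12.5 bp. The ATF3 centre was nearer to the core at 80 sites (74.8%, 65.8 to 82.0), with a median of 22 bp to the core and 55.5 bp to the p53 motif. The motifs themselves were a median of 59.5 bp apart, and they shared bases at 5 sites.

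Sites with 1 kind of motif showed the same division. Where only a core was present, the ATF3 centre was within 50 bp of it at 69 of 80 sites (86.2%) and the p53 centre at 34 (42.5%). Where only the p53 motif was present, the p53 centre was within 50 bp of it at 176 of 193 sites (91.2%) and the ATF3 centre at 81 (42.0%). The median distance between centres was 54 bp with both motifs, 59 bp with the p53 motif only, 55 bp with a core only and 67 bp with neither.

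**Figure D2:**
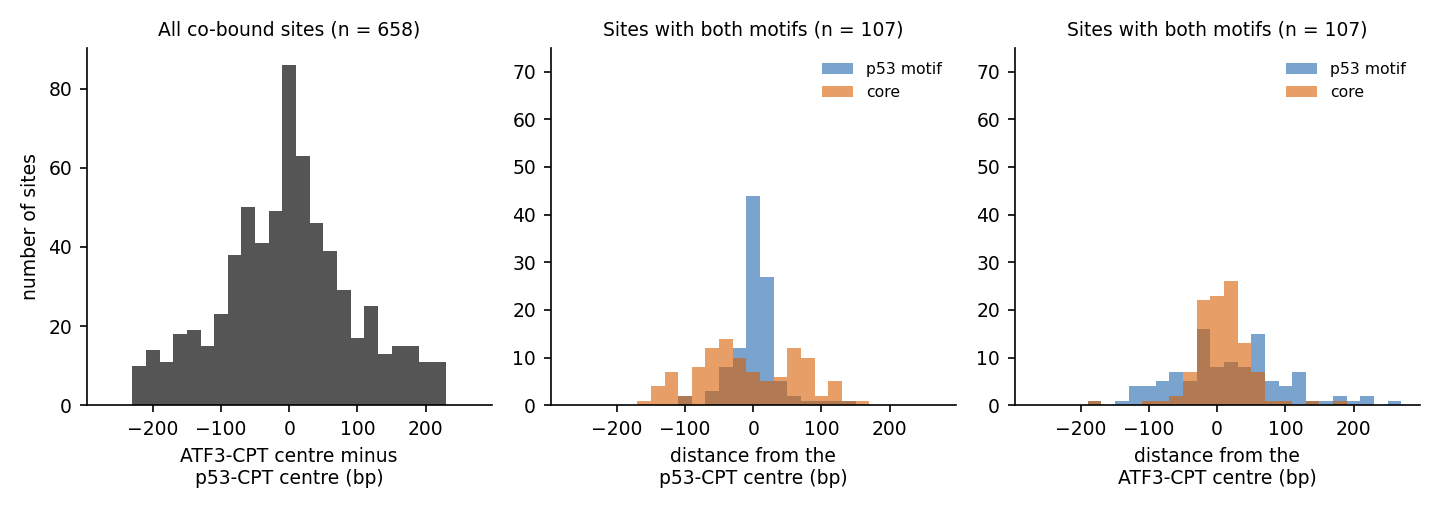
Number of sites by the signed distance between the p53-CPT and ATF3-CPT centres (left, 658 sites), and by the distance of each motif from the p53-CPT centre (middle) and the ATF3-CPT centre (right) at the 107 sites with both motifs, in bins of bp along the plus strand. p53 motifs pile up at the p53 centre, and cores at the ATF3 centre.

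The classes also differed in the level of each protein. The median p53-CPT score was 16 tags with both motifs and with the p53 motif only, but 8 tags with a core only and with neither. The median ATF3-CPT normalized tag count was highest with a core only (39.8), followed by both motifs (25.2), neither (12.3) and the p53 motif only (11.6). Over all co-bound sites the p53-CPT normalized tag count ran from 18.9 to 905 (median 31.5) and that of ATF3-CPT from 5.2 to 218 (median 15.5). Across the 658 sites the log2 values of p53 and ATF3 had a Pearson r of 0.0671 and a Spearman rho of 0.0196. The points share the same pair of libraries, and many lie close to the lower limit of the lists. A weak correlation in such sparse counts is given as a description only.

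**Figure D3:**
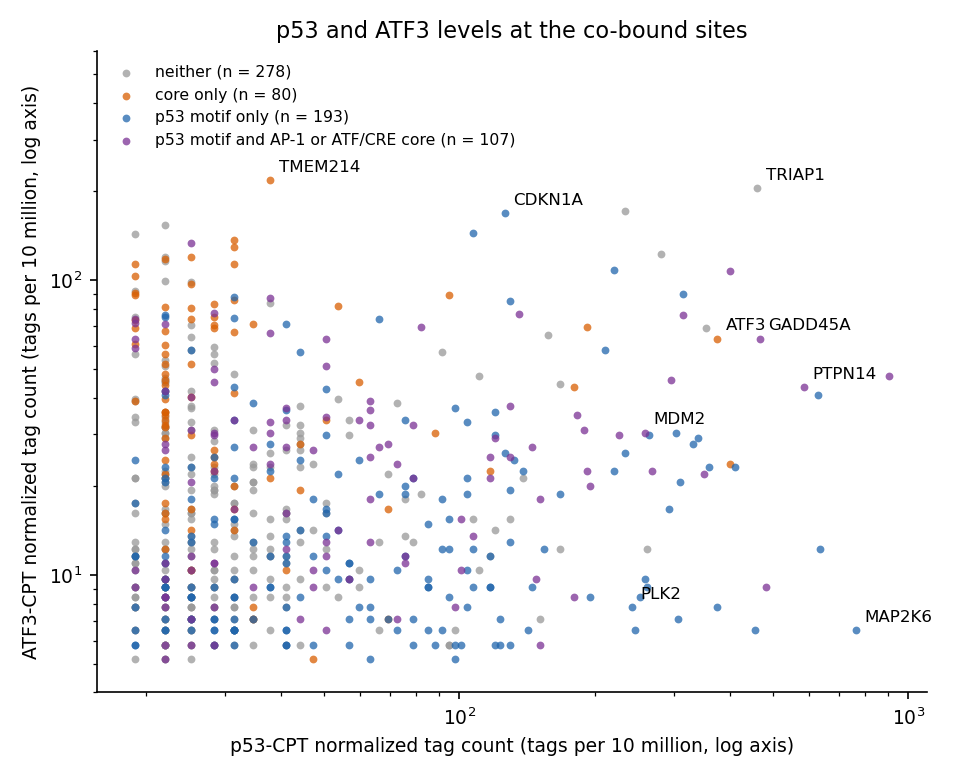
p53-CPT against ATF3-CPT normalized tag count (tags per 10000000, log axes) at each co-bound site, coloured by motif class. Sites with a core only have the highest median ATF3 value (39.8), and TMEM214, CDKN1A and TRIAP1 are among the highest in ATF3 at p53 values from 37.9 to 461. Labels name the gene with the nearest protein-coding TSS.

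A larger share of the strongly bound p53 sites was co-bound. Of p53 peaks with scores of 7 to 8, 16.7% (14.9 to 18.7) were co-bound, and the share was 24.4% (20.4 to 29.0) at scores of 21 to 40 and 27.4% (21.9 to 33.7) at 41 or more. The 5 co-bound sites with the highest p53 scores had ATF3-CPT values from 6.50 to 47.2. Each lay outside promoters and held a p53 motif. The strongest, 312431 bp from the TSS of SARAF, a regulator of store-operated calcium entry, had a p53-CPT value of 905 (804 to 1016) with an ATF3-CPT value of 47.2. At the second, 192664 bp from the TSS of MAP2K6, an activating kinase of p38, p53-CPT was 764 and ATF3-CPT was 6.50, close to the lowest value in the list. The site near MTHFD1L, an enzyme of mitochondrial folate metabolism, had 634 and 12.3, and neither it nor the MAP2K6 site had an ATF3-Ctrl peak. The site 18952 bp from the TSS of GML, which encodes a GPI-anchored protein, had 628 and 40.8. In intron 3 of PTPN14 (chr1:214612819-214613137), a tyrosine phosphatase gene, the values were 587 and 43.3, with an AP-1 core 71.5 bp from the p53 motif.

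The location of co-bound sites differed from that of the other p53 peaks. A TSS of a protein-coding gene was within 2 kb at 148 of them (22.5%, 19.5 to 25.8), against 182 p53 peaks without ATF3 (6.33%), a difference of 16.2 points (13 to 19.6). All ATF3-CPT peaks had a promoter share of 18.0%. Introns held 30.2% of co-bound sites and 39.6% of the p53 peaks without ATF3, and regions between genes held 44.4% and 52.2%. Promoter location was most frequent where no motif was found. It applied to 35.6% of sites with neither motif, 14% with the p53 motif only, 13.8% with a core only and 10.3% with both (11 of 107). At p53 scores of 7 to 8, 34.2% of co-bound sites and 7.01% of p53 peaks without ATF3 lay in promoters, and at 21 or more 15% and 6.49%. Promoter sites also had a median GC content of 64.9%, against 48.3% elsewhere. Within the p53 motif class the promoter share was 12.7%, against 5.22% of p53 peaks without ATF3 that had the motif, a difference of 7.44 points (3.88 to 11.8).

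The 658 sites had 614 different nearest genes. FAM27E3 was nearest to 7 sites, LINC00999 to 5 and GDF15 to 3. Of the co-bound sites, 13 lay within 10 kb of another one. By sequence, 80 co-bound sites (12.2%) shared at least 50% of their words of 31 bp with other places in the genome, where the assignment of reads is uncertain. The share was 12.7% at p53 peaks without ATF3.

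Of 37 genes of the p53 pathway list that were in the annotation, 30 had a p53 site without a p53-KO peak in the gene or the 20 kb before it, and 17 had a co-bound site. ATF3-CPT peaks were found at 35 of the 37, so a p53 site without ATF3 is not a gene without ATF3. The list was put together with earlier results of these data known, and its last group holds genes that the study picked on these same libraries, so its counts are not independent evidence. In all, 20 of 39 p53 sites at these genes were co-bound (51.3%, 36.2 to 66.1), against 18.6% of all p53 sites without a p53-KO peak. Without the group that the study picked it was 12 of 30 (40%, 24.6 to 57.7). The 18.6% is not matched for location, and many sites of the list lay in promoters. Promoters of all genes held 148 co-bound sites and 182 p53 peaks without ATF3, a larger co-bound part than 18.6%. Whether sites of the list differ from other promoter sites was not tested. The single groups hold 3 to 10 p53 sites each, too few to set one against another. Their counts stand beside the same 18.6%, with the same limit. Their promoter sites are to be read beside the 148 and 182 promoter peaks above. Where 3 values follow each other, they are the normalized tag counts of p53-CPT, ATF3-CPT and ATF3-Ctrl in this order, and ratios are those of ATF3-CPT to ATF3-Ctrl.

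Among genes that feed back on p53, 3 of 4 were co-bound, with 4 of 5 p53 sites, against 18.6% of all p53 sites without a p53-KO peak. This 18.6% is not matched for location. MDM2, the main ubiquitin ligase of p53, had a site in intron 1, 795 bp from the TSS (chr12:69202593-69202911). There p53-CPT was 259 (206 to 321), ATF3-CPT was 30.4 and ATF3-Ctrl was 8.50, a ratio of 3.58 (1.83 to 7.65). A second MDM2 site 7940 bp from the TSS was weaker, with 25.2, 9.10 and 7.70, and 50.2% of its words of 31 bp occur elsewhere in the genome. PPM1D, a phosphatase that reverses p53 signalling, had a site 44 bp from its TSS with values of 41, 36.9 and 10.8 and a ratio of 3.42 (1.88 to 6.63), and an ATF3-KO peak was present there. TP53INP1, a stress protein that aids p53, had a promoter site with 50.5, 16.2 and 7.70. The promoter site of CCNG1, cyclin G1, had a p53 value of 41 and no ATF3 peak.

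Of 6 growth arrest genes, 3 were co-bound, with 3 of 8 p53 sites. CDKN1A, the cell cycle inhibitor p21, had 3 p53 sites, and 1 was co-bound. This site 11469 bp upstream of the TSS (chr6:36634863-36635181) had p53-CPT at 126 (90.2 to 172), ATF3-CPT at 169 and ATF3-Ctrl at 191, with the centres 4 bp apart. The ratio of 0.885 (0.741 to 1.06) did not differ from 1 beyond counting error. The strongest CDKN1A peak, 2259 bp upstream, had a p53 value of 905 and no ATF3 peak, and neither had the intron site with 114. GADD45A had a site in intron 3 (chr1:68152291-68152609) with p53-CPT at 467 (395 to 549), ATF3-CPT at 63.4 and ATF3-Ctrl at 85.0. Its ratio of 0.746 (0.562 to 0.989) lay below 1. At PLK2, a kinase induced by p53, the site with a p53 motif of 0 mismatches had a p53 value of 243, an ATF3-CPT value of 7.80 and no ATF3-Ctrl peak. BTG2, PLK3 and SFN had p53 sites with values of 31.5 to 155 and no ATF3-CPT peak at these sites. Elsewhere these genes had 2, 3 and 4 ATF3-CPT peaks.

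Of 9 apoptosis genes, 8 had p53 sites and 3 were co-bound, with 3 of 10 sites. BBC3, which encodes the BH3-only protein PUMA, had 2 promoter sites. The one 1376 bp from the TSS (chr19:47735673-47735991) had p53-CPT at 120, ATF3-CPT at 35.6 and ATF3-Ctrl at 15.4, with the centres 195 bp apart and only 27 bases shared. The stronger one, nearer to the TSS and with a p53 value of 218, had no ATF3 peak. PHLDA3, an inhibitor of AKT, had p53-CPT at 167, ATF3-CPT at 12.3 and ATF3-Ctrl at 6.20. BCL2L1, which encodes the survival protein BCL-XL, had a site in intron 2 with values of 129, 84.8 and 27.0, a ratio of 3.14 (2.15 to 4.69). Its other intron site, with 50.5, had no ATF3 peak. BAX, FAS, TNFRSF10B, PMAIP1 and AEN, which all promote apoptosis, had 1 promoter site each without ATF3, with p53 values from 34.7 to 218.

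Of 4 repair genes, XPC and POLH were co-bound at their promoters. XPC, the damage sensor of nucleotide excision repair, had p53-CPT at 25.2 and ATF3-CPT at 18.1 with the centres 5 bp apart and no ATF3-Ctrl peak. POLH, a translesion polymerase, had 28.4 and 18.8, an ATF3-Ctrl value of 9.30 and an ATF3-KO peak. The stronger p53 sites of DDB2 (196) and RRM2B (306), a damage sensor and a ribonucleotide reductase subunit, had no ATF3. Of the 6 metabolism and autophagy genes, SESN1 and TIGAR had 3 p53 sites in all, and none was co-bound.

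The group of secreted factors and genes named by the study had 6 co-bound genes, with 8 of 9 p53 sites. GDF15, a secreted cytokine of the TGF-β family, had a site 12195 bp upstream (chr19:18484614-18484932) with p53-CPT at 252 and ATF3-CPT at 8.40, and a promoter site with 50.5 and 16.8. Neither had an ATF3-Ctrl peak. Another site nearest to GDF15 (chr19:18475651-18475969), chosen after its values were seen, lay further upstream than the span of the list, with 221, 109 and 59.5 and a ratio of 1.83 (1.39 to 2.43). IGFL3, an IGF-like secreted protein, had p53-CPT at 341, ATF3-CPT at 29.1 and ATF3-Ctrl at 13.9, with 42.6% of its words of 31 bp found elsewhere. GSN, the actin-severing protein gelsolin, had an intron 11 site with 331, 27.8 and 6.20, a ratio of 4.48 (2.09 to 11.1). MSI2, an RNA-binding protein, had 360, 23.3 and 9.30 at a p53 motif with 0 mismatches. TBC1D22A had 2 core-only sites, the stronger with 94.6, 89.3 and 27.8.

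ATF3 itself was one of the co-bound genes. The site lay 12187 bp upstream of the TSS of its canonical transcript (chr1:212769757-212770075), with p53-CPT at 375 (311 to 449) and ATF3-CPT at 63.4. It had no ATF3-Ctrl peak, and it had the highest ATF3-CPT score (81) of the co-bound sites without one. It held an AP-1 core, and its best match to the p53 motif had 4 mismatches. A weaker p53 site in an exon of ATF3, with 44.2, had no ATF3 peak. The next 4 co-bound sites without an ATF3-Ctrl peak lay 5654 to 52580 bp from their nearest TSS, those of MICAL2, HSPA12A, CD109 and DENND3. They had ATF3-CPT values of 40.1 to 64 with p53 values of 25.2 to 50.5. The MICAL2 site shared only 5 bases with its ATF3-CPT peak, with centres 217 bp apart and a p53 score of 8.

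An ATF3-Ctrl peak was present in DMSO at 336 of the co-bound sites (51.1%, 47.3 to 54.9). Counted by ATF3-CPT peaks, 342 of the 667 at co-bound sites shared a base with an ATF3-Ctrl peak (51.3%, 47.5 to 55.1), against 38.3% of all ATF3-CPT peaks. A peak was also found in ATF3-KO cells at 75 of the 336 sites. Among the 577 co-bound sites without an ATF3-KO peak, 261 had an ATF3-Ctrl peak (45.2%, 41.2 to 49.3). Counted by ATF3-CPT peaks without an ATF3-KO peak, the share was 46.3% (42.3 to 50.3) at co-bound sites and 37.0% of all. These comparisons with all ATF3-CPT peaks are not matched for peak height, which is taken up below. Of the p53 peaks without ATF3, 45 had an ATF3-Ctrl peak (1.57%). They were chosen for having no ATF3-CPT peak, so this low share is not independent of the choice. Among co-bound sites, the share with an ATF3-Ctrl peak varied with motif class. By ATF3-CPT peaks it was 72.5% (61.9 to 81.1) with a core only, 58.8% (53 to 64.4) with neither, 46.8% (37.7 to 56.1) with both motifs and 34.0% (27.7 to 40.9) with the p53 motif only.

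The share also moved with the height of the ATF3-CPT peak. Among all ATF3-CPT peaks, those with scores of 9 to 12 had an ATF3-Ctrl peak in 11.1% of cases and those of 41 or more in 93.3%. Among the ATF3-CPT peaks at co-bound sites it was 22.1% (15.9 to 29.7) at 9 to 12 and 92.5% at 41 or more. At 13 to 20 it was 32.8% (26.5 to 39.8), against 24.1% of all, and at 21 to 40 49.7% (42.0 to 57.4), against 56.5%. The share at co-bound sites was thus above that of all ATF3-CPT peaks only under a score of 21. At 41 or more the 4 classes ran from 87.0% to 96.2%. At 21 to 40 the share was 56.5% of all ATF3-CPT peaks, 26.9% (13.7 to 46.1) with both motifs, 38.8% (26.4 to 52.8) with the p53 motif only, 44.4% (24.6 to 66.3) with a core only and 68.2% (56.2 to 78.2) with neither. At 13 to 20 it was 24.1% of all, 16% with both motifs, 18.3% with the p53 motif only, 0 of 8 peaks with a core only (up to 32.4%) and 49.5% with neither. At 9 to 12 it was 33.3% (23.4 to 45.1) with neither motif and 0 of 2 peaks with a core only. The class with a core only, highest over all scores, was thus not above the class with neither at any score range under 41, and 52 of its 80 peaks had scores of 41 or more. Below a score of 21, sites with neither motif had an ATF3-Ctrl peak more often than all ATF3-CPT peaks, beyond the counting intervals. At 21 to 40, sites with a p53 motif had it less often than all, again beyond the intervals. Over all scores, 26.6% of the sites with neither motif also had an ATF3-KO peak. The shares by score were not split by ATF3-KO peaks, so a link between these values was not tested.

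**Figure D4:**
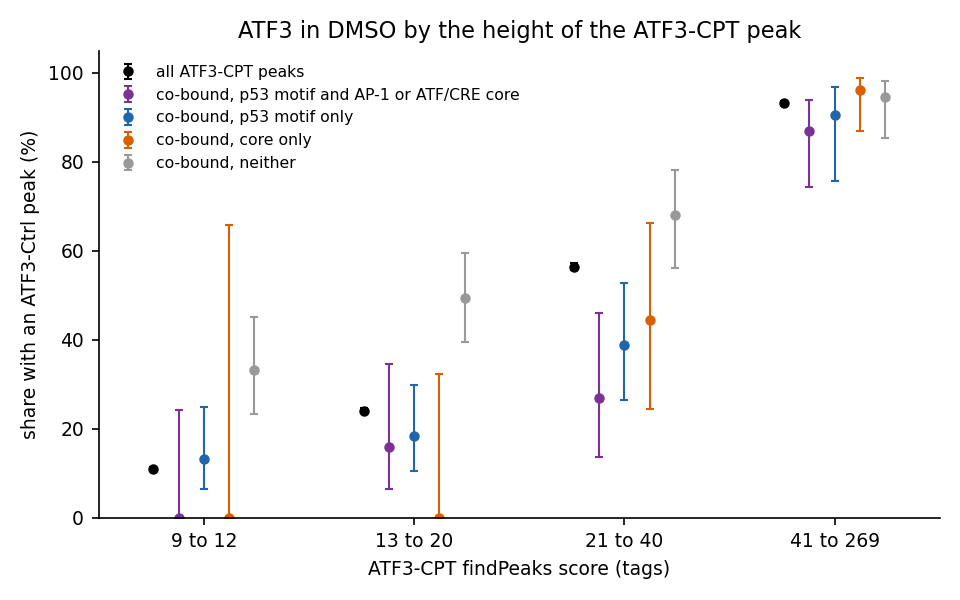
Share of ATF3-CPT peaks with an ATF3-Ctrl peak (%, 95% Wilson intervals) by the ATF3-CPT score in tags, for all ATF3-CPT peaks and for the 4 motif classes of co-bound sites. The share is 87.0% or more in every class from 41 tags, and between 13 and 20 tags sites with neither motif reach 49.5% against 24.1% of all.

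Where both peaks were present, the normalized tag count of ATF3-CPT was a median of 1.84 times that of ATF3-Ctrl (1.65 to 1.98, n = 336), and over all ATF3-CPT peaks with an ATF3-Ctrl peak the median was 1.81. The value was at least 2 times higher at 149 sites (44.4%), against 44.0% of all such ATF3-CPT peaks, and at least 2 times lower at 13 (3.87%), against 2.04%. The share that was higher is close to the background and is not a result about the co-bound sites. The interval of the share that was lower (2.28 to 6.51) lies above the background, and 12 of the 13 sites had an ATF3-KO peak. Without the sites that had one, 1 of 261 was at least 2 times lower (0.383%). The background was not computed without ATF3-KO peaks. The counting interval lay above 1 at 176 sites, below 1 at 26, and held 1 at 134.

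The motif classes differed more than the whole set. The median ratio was 2.96 with both motifs (n = 50), 2.65 with a core only (n = 58), 1.98 with the p53 motif only (n = 61) and 1.09 with neither (n = 167). A value at least 2 times higher was seen at 76.0% (62.6 to 85.7) of sites with both motifs and 22.8% (17.0 to 29.7) with neither. It was 74.1% with a core only and 49.2% with the p53 motif only, against 44.0% of all ATF3-CPT peaks with an ATF3-Ctrl peak. That background was not split by motif, so whether the differences are particular to co-bound sites was not tested. All 13 sites that were at least 2 times lower held neither motif. The 3 highest ratios were 6.30 (3.67 to 11.7), 5.69 (3.30 to 10.6) and 5.42 (2.57 to 13.3). Their nearest TSS were, in this order, those of RALGDS, an exchange factor for Ral (12881 bp away), SPPL3, an intramembrane protease (21708 bp), and TBCA, a tubulin chaperone (103751 bp). The RALGDS site was at the edge of the rule, with 10 bases shared, centres 212 bp apart and the lowest p53 score, 7 tags. The 3 lowest were 0.329, 0.337 and 0.392, all with an ATF3-KO peak. Their nearest TSS were, in this order, those of LINC00999 (155066 bp away), ENSG00000284209 (262927 bp) and EPHA3 (1342192 bp). Of their words of 31 bp, 20.4%, 72.7% and 42.2% occur elsewhere in the genome.

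**Figure D5:**
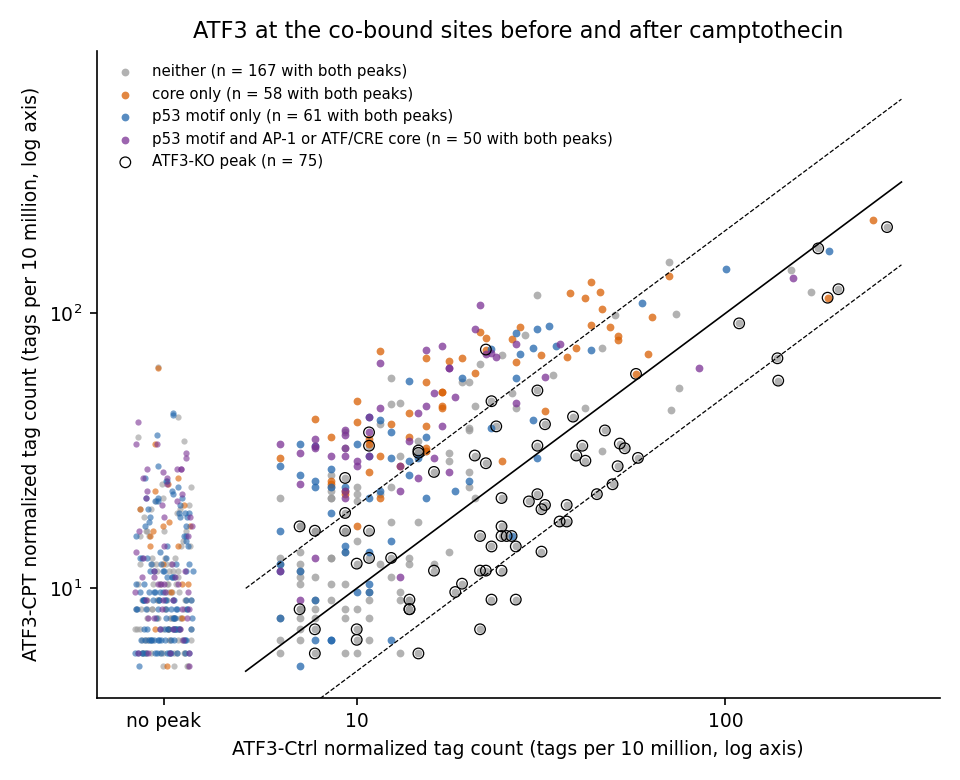
ATF3-Ctrl against ATF3-CPT normalized tag count (tags per 10000000, log axes) at co-bound sites, with sites that had no ATF3-Ctrl peak in a jittered column at the left; the solid line marks equal values and the dashed lines a factor of 2. Sites with an ATF3-KO peak (open circles, n = 75) lie mostly below the solid line, with a median ratio of 0.710.

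Peaks in ATF3-KO cells were found at 81 co-bound sites (12.3%, 10.0 to 15), against 2.48% of all ATF3-CPT peaks. Among p53 peaks without ATF3, a set chosen for having no ATF3-CPT peak, the share was 0.835%. Of the 81 sites, 74 held neither motif, 75 had an ATF3-Ctrl peak and 32 (39.5%) had mostly repeated sequence by the measure above. Their median ATF3-CPT to ATF3-Ctrl ratio was 0.710 (n = 75). At the co-bound sites without an ATF3-KO peak it was 2.10 (n = 261), with 53.3% at least 2 times higher. Over all ATF3-CPT peaks with an ATF3-Ctrl peak, those with an ATF3-KO peak included, that share was 44.0%. It was not computed without them, so the 53.3% is not a result about the co-bound sites. The part of the ATF3-KO signal in the values of the 81 sites was not tested. The 5 highest ATF3-CPT scores included sites of both kinds. The site in intron 1 of MAPRE3, 21998 bp from the TSS of TMEM214 (ATF3-CPT 218, ATF3-Ctrl 251), had no ATF3-KO peak. Neither had the one 64481 bp from the TSS of EHF (144 and 100), nor the CDKN1A site. TRIAP1, whose product restrains apoptosis after p53 activation, had a p53-CPT value of 461 with ATF3-CPT at 206 and ATF3-Ctrl at 274, and an ATF3-KO peak. So did the site at 567400 to 567718 on chromosome 1, 54475 bp from the TSS of OR4F16, where 82.0% of the words of 31 bp occur elsewhere in the genome.

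At the edge of the rule, the co-bound sites with the fewest shared bases were one in an intron of TBCD nearest to ZNF750, with 1 base shared, a p53 value of 28.4 and an ATF3-CPT value of 9.10, and one at the SKI promoter, with 2 bases, 34.7 and 8.40. Just outside, the p53 peak near RPS19 was separated by 1 base from an ATF3-CPT peak, with a p53 value of 382, and the one near SLC35F3 by 5 bases, with 240. In all, 82 p53 peaks without ATF3 (2.85%) had an ATF3-CPT peak within 100 bp.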

How the data were processed

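The deposited lists hold the HOMER 4.1 findPeaks peaks of each of the 5 libraries, which the authors called per library, without an input, on reads aligned to hg19 with BWA 0.6.1. Per the file headers, the limits were 0.001 for the false discovery rate, 1e-04 for the local Poisson p-value and a 4-fold excess over the surrounding 10 kb. The signal used is the normalized tag count, which the authors scaled to 10000000 tags, and the deposited score is a number of tags not adjusted for depth. The fold over the local region, its p-value, the focus ratio (a fraction of tags near the centre) and the clonal fold that the authors deposited were not used. With 3 tags as the limit that a count of 0 allows, normalized values under 9.46 in p53-CPT and 1.94 in ATF3-CPT cannot be told from 0.

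Overlaps of at least 1 bp, motif searches in the hg19 reference and annotation with GENCODE release 44 mapped to GRCh37 were computed with Python 3.11.15, pandas 2.3.3, pysam 0.24.0 and scipy 1.17.1. A promoter reached 2 kb either way from the canonical TSS of a protein-coding gene. Shares have Wilson intervals, differences of shares Newcombe intervals, ratios exact conditional intervals on tag numbers computed back from the normalized values, single p53 values exact Poisson intervals, and medians over sites binomial order-statistic intervals. There were no replicates and no test was run. At the 9 sites with 2 ATF3-CPT peaks the one with the higher normalized tag count was used. The scripts were tested on simulated data, and 12 of 12 checks gave the planted answer.

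Members, gene list and named sites were chosen with earlier results of these data known. Sites were named if they lay at genes of the p53 list, or up to 20 kb before them, if they were among the 5 highest in p53-CPT score, in ATF3-CPT score or in ATF3-CPT score without an ATF3-Ctrl peak, the 3 highest or lowest ratios, or the 2 nearest either side of the overlap rule. SRGAP2B was not in the annotation. Alternatives covered the overlap, score limits, removal steps, promoter width, motif mismatches and windows. Most of those that leave out sites with an ATF3-KO peak, and those that leave out repeated sequence, were chosen after seeing the data.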

Additional observations from a re-analysis of the deposited data

Results flagged for a closer look

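Peaks in the ATF3-KO library, which plays no part in the choice of the co-bound sites, were present at 81 of them. The library comes from cells without ATF3, and a peak in it needed at least 11 tags. Its peaks at these sites had scores from 11 to 258 tags with a median of 22. Of the 81 sites, 22 lay in promoters. Whether these peaks account for the ATF3 signal of the same sites in the other libraries was not tested.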

How the results depend on the processing

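Each condition had 1 library, so no replicate could be left out, and binding under 7 tags (p53-CPT) or 9 tags (ATF3-CPT and ATF3-Ctrl) was not detectable. No paired analysis was possible because no condition had a replicate. The cause of the changes listed here was not tested. The number of co-bound sites was 286 with centres within 50 bp, 334 with a score of at least 10 in both peaks and 98 with at least 20; the other settings gave 569 to 904. The share with an ATF3-Ctrl peak was 44.5% when 0.5 of the shorter peak had to be shared, 46.8% with an ATF3-Ctrl score of at least 10, 45.2% without ATF3-KO peaks and 66.3% with a score of at least 20 in both peaks. The promoter share was 18.5% within 1 kb, 31.3% with genes of every type and 13.3% with scores of at least 20. The p53 motif share was 24.6% with at most 2 mismatches, 67.3% with at most 4, 71.4% with scores of at least 20 and, in an alternative added after the data had been seen, 51.5% without ATF3-KO peaks. The share with a core was 74.6% with at most 1 mismatch, 22.8% in 200 bp around the centre, 32.8% in the bases of the ATF3-CPT peak and 41.8% with scores of at least 20. The median ratio was 2.03 by the findPeaks score, 2.10 without ATF3-KO peaks and 2.47 for sites with a p53 motif, the last added later. The score is not adjusted for depth. ATF3-CPT had 15457013 tags and ATF3-Ctrl 12947516, and ratios by score carry this difference. The median distance between centres stayed between 58.0 and 62.0 bp. Of 58 alternative ratios of named sites, 56 stayed within their counting interval. The others were TRIAP1 with 0.885 and CDKN1A with 1.18, both by score and so not adjusted for depth.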
